A study of Mus musculus with 13 samples.

Results

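The genes examined are 10 AP-1, Egr and other immediate early genes: Fos, Fosb, Fosl2, Jun, Junb, Atf3, Egr1, Egr2, Ier3 and Csrnp1. They were chosen by name, with earlier results of these data known. Their values are the deposited H3K27ac signal of the regions that overlap each gene, or that have it as the nearest protein-coding gene within 100 kb. This gave 26 of 40691 regions, of which 13 overlap their gene and 13 lie outside it, and 10 of the 14978 genes with a region. All 10 gene sums and 25 of the 26 regions passed the filter on low values.

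H3K27ac was profiled by chromatin immunoprecipitation with an Abcam antibody (ab4729) in bone marrow-derived macrophages, which were grown from marrow precursors for 5 days in M-CSF conditioned medium. All groups came from mice of genotype IL10-/-RAG2-/- and strain 129S6/SvEvTac, so the cultures cannot produce IL-10 themselves, and lymphocytes that need RAG2 to mature were absent from the donors in every group. Each of the 4 groups has 3 libraries, and the design names 3 independent macrophage pools. In the late IL-10 group, LPS was given for 195 min and IL-10 was present in the last 30 min, at a dose that the labels do not restate. In the continuous IL-10 group, LPS and IL-10 (1 ng/mL) were given together for 195 min. The LPS group had LPS (1 ng/mL) alone for 195 min, and the untreated group had neither. LPS is the bacterial lipopolysaccharide and IL-10 an anti-inflammatory cytokine.

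Immediate early genes are transcribed within minutes of a stimulus, without the need for new protein, and many of their transcripts are short-lived. AP-1 is a dimer of Fos, Jun and ATF family proteins that binds regulatory DNA, and Egr proteins are zinc finger transcription factors induced by the same kinase and serum response factor signals. In macrophages these factors act with NF-kB downstream of Toll-like receptors. H3K27ac marks active promoters and enhancers, so the values below describe the state of the chromatin at these loci, not the amount of RNA.

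Promoter windows, from 250 bases before to 50 after an annotated start, are shown for 5 of the genes whose loci changed. These are the genes with a kB motif, bound by NF-kB, in at least 1 window, so they are no sample for that motif. Each window lies in a region measured here. RefSeq (GRCm38.p6, the assembly of mm10) gave 16 windows for 9 of the 10 genes, and every printed window is in a region that overlaps its gene. The start of the Egr2 window is an annotated start inside the gene. Each sequence reads 5′ to 3′ in the direction of transcription, with motif matches in capitals. The windows are chr12:85473640-85473939 on the plus strand for Fos, chr7:19309996-19310295 on the minus strand for Fosb, chr5:32136222-32136521 on the plus strand for Fosl2, chr10:67537619-67537918 on the plus strand for Egr2 and chr17:35821463-35821762 on the plus strand for Ier3.
Fos: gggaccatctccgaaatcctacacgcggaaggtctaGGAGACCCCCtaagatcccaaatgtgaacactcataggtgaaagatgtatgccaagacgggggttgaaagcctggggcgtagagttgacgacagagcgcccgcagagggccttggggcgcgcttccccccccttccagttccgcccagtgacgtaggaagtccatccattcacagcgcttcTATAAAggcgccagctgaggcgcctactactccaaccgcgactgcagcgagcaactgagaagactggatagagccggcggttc
Fosb: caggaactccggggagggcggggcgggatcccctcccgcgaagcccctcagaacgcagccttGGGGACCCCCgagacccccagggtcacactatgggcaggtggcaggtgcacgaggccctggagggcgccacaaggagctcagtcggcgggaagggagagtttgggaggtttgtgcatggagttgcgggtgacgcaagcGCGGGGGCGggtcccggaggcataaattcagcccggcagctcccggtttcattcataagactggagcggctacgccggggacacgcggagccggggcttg
Fosl2: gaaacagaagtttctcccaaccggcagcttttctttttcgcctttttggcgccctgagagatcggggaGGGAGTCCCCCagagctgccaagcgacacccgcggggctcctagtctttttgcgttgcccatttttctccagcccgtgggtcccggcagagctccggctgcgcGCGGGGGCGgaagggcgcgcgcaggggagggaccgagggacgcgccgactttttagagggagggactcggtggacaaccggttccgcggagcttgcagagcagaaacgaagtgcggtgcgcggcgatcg
Egr2: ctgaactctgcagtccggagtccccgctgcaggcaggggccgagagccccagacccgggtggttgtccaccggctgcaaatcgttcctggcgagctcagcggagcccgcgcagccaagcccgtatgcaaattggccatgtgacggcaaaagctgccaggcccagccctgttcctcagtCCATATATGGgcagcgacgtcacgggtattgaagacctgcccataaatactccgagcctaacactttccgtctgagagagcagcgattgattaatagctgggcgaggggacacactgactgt
Ier3: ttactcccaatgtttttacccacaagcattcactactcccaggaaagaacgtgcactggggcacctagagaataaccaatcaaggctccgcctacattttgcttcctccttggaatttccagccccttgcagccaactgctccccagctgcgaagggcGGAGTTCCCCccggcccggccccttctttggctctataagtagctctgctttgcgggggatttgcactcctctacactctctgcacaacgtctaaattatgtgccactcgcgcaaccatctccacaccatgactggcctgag

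The capitals in the Fos window are a kB motif, bound by NF-kB, and a TATA box (TATAAA) at 33 to 28 bases before the start. In the Fosb and Fosl2 windows they are an Egr motif (GCGNGGGCG) and kB matches, of which the 2 in Fosl2 overlap each other. The Egr2 window holds a CArG box, the core of the serum response element, at 72 to 63 bases before its start, as do 4 of the 5 Egr2 windows, which overlap in part. The Ier3 window holds a kB match at 92 to 83 bases before the start. Both strands were searched for 7 motifs. Among 32851 windows of the same length, 8.46% held the kB motif, 5.55% the Egr motif, 13.6% TATAAA and 1.63% a CArG box. At least 1 window of 5 of the 9 genes held a kB match, and of 2 an Egr match. These 5 are the genes printed here, and the kB match of Egr2 lies in a window not printed. Csrnp1, which also rose with LPS, held none and is not printed. A gene can have several windows, so its count is not on the same footing as the share of single windows. An AP-1 site (TGANTCA, in 7.81% of all windows) was found only at Csrnp1, with 2 matches in 1 of its 4 windows. The cyclic AMP response element TGACGTCA (1.79%) was in none of the 16 windows, and a STAT motif (TTCNNNGAA, 8.3%) was in 1, also at Csrnp1. A match describes these letters and shows no binding, and a missing match says nothing about a factor.

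The libraries held between 5149730 and 26922552 reads in regions, and replicate 3 was the deepest of each group. In the deposited table no value is below 1 read, and 19.7% to 29.9% of the regions of a library lie at exactly 1 read. The share was 25.5% in untreated replicate 3, with 26922552 reads, and 26.8% in untreated replicate 2, with 7208540 reads. Whether this lowest value is a counted read or a set minimum is not given, and this was not tested. A locus is called at the floor where all 3 libraries of a group hold at most 3 reads per region. Folds against it are lower bounds on the deposited values only. They are not lower bounds on the signal before any subtraction or set minimum. The summed level of 7 macrophage markers was 28599 to 32662 with late IL-10, 34284 to 37347 with continuous IL-10, 30210 to 39212 with LPS and 29218 to 39603 in untreated cells. The T cell list, of which Cd3g and Cd8a have no region, came to 668 to 955 with late IL-10, 157 to 409 with continuous IL-10, 447 to 545 with LPS and 315 to 501 in untreated cells, where Cd3e was at the floor. The B cell list, without a region for Pax5, came to 2016 to 3067 with late IL-10, 1806 to 2561 with continuous IL-10, 1552 to 2046 with LPS and 2509 to 3246 in untreated cells. The neutrophil list, without a region for Mpo and with Ly6g at the floor in every group, came to 1213 to 1779 with late IL-10, 1951 to 2317 with continuous IL-10, 1399 to 1867 with LPS and 663 to 1620 in untreated cells. The dendritic cell list came to 3269 to 7138 with late IL-10, 2894 to 4819 with continuous IL-10, 3872 to 9685 with LPS and 5348 to 6395 in untreated cells. The fibroblast list, without a region for Col3a1, ranged from 6085 to 17760 over the 12 libraries, and its groups overlapped. Of that list, Col1a1 was at the floor in every group but late IL-10, and Dcn in untreated cells. The part of these lists in the results was not tested. Fewer cells of a type and less H3K27ac per cell cannot be told apart in such bulk samples.

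With LPS, 3 of the 10 gene sums rose and 1 fell, where 27.5% of all 13480 genes tested were called in either direction. Egr2, Csrnp1 and Fosl2 rose and Fosb fell, at an adjusted p under 0.05 from limma across all genes. The median log2 difference over the 10 genes was 0.00, against -0.11 over all genes. Continuous IL-10 raised Ier3 alone relative to LPS (background 5.76%), with a median of 0.40 against 0.03 over all genes. The count with LPS became 2 without untreated replicate 1 or 2, and that with continuous IL-10 became 0 when replicate 1 of LPS, or replicate 1 or 3 of the continuous IL-10 group, was left out, and 2 without LPS replicate 3. Late IL-10 raised Ier3 and Fosl2 relative to LPS (background 3.45%), with a median of 0.15 against -0.16 over all genes. Since the medians of all genes lie more than 0.1 below 0 in several comparisons, each was also fitted with every library centred on its median, which turned the sign of no called gene. It did change which gene was called with continuous IL-10 relative to LPS: Ier3 was lost and Csrnp1 was called lower, both after centring and by edgeR.

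Per region, 7 of the 25 tested rose with LPS and 2 fell, against a background of 34.5%. With continuous IL-10 relative to LPS 1 rose (background 6.52%), which became 4 without LPS replicate 3 and 0 on leaving out any of the same 3 libraries. With late IL-10 relative to LPS 4 rose and none fell by limma (background 3.53%; at an unadjusted p below 0.05 these counts were 6 and 2, where 12.7% of all regions were that low, and edgeR and DESeq2 made 4 calls each, among 914 and 2101 over all regions). Those 4 calls became 1 without late IL-10 replicate 1 and 0 when the 2 groups were fitted alone. The LPS libraries enter all 3 of these comparisons. Log2 differences are on the log2(value + 1) scale, where the added 1 shrinks the change of weak regions. Where only some libraries of a group lie at the floor, the difference can instead be overstated. It was -4.67 by limma and -3.37 by edgeR at the Jun region 29.0 kb upstream between the schedules. For the Egr1 sum with late IL-10 against untreated it was -3.16 and -1.76.

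**Figure D1:**
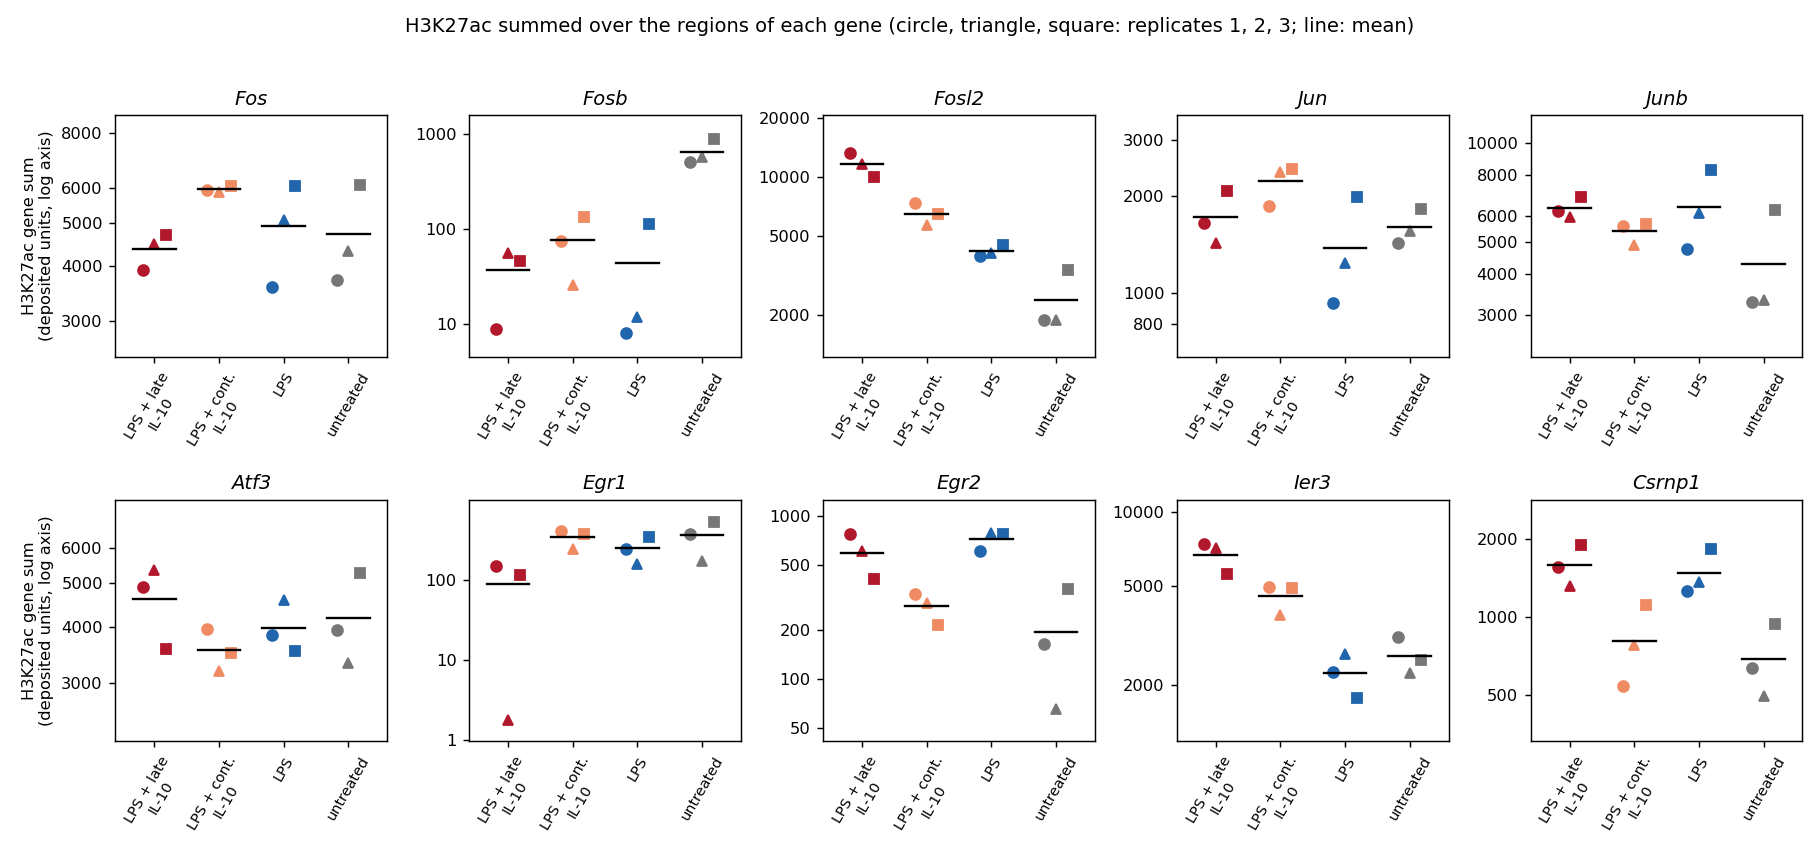
H3K27ac summed over the regions of each of the 10 genes (deposited units, log axis) in the late IL-10, continuous IL-10, LPS and untreated groups, from left to right. Points are the 3 libraries of a group and lines are means; the Fosl2 and Ier3 sums are highest with late IL-10, and the Fosb sums of all LPS-treated groups lie below the untreated range of 505 to 894.

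Fos encodes the founding AP-1 subunit, which dimerises with Jun proteins. Its sum hid opposite changes along the locus: the region over the gene fell with LPS, while a region downstream of it rose. The region over the gene, chr12:85461488-85477339, reaches from 12.4 kb before the start of Fos past its end. Its value was 132, 156 and 387 in the late IL-10 libraries, 494, 426 and 730 in the continuous IL-10 libraries, 84.6, 52.1 and 714 in the LPS libraries, and 969, 1080 and 1756 in the untreated libraries. All 9 libraries given LPS lay below the 3 untreated ones, and LPS replicate 3 stood far above the other LPS libraries. The log2 difference between LPS and untreated was -3.05 (SE 0.77, adjusted p = 0.00767), or -4.18 without LPS replicate 3 and -2.31 without LPS replicate 2, and edgeR on recovered reads did not call it (adjusted p = 0.0566). Late IL-10 differed from LPS by 0.44 (95% interval -1.21 to 2.09) and continuous IL-10 by 1.86 (0.21 to 3.51, adjusted p = 0.193), so neither passed.

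The downstream Fos region, chr12:85505568-85537135, begins 28.3 kb beyond the gene. It held 1640, 2225 and 1034 with late IL-10, 1905, 2143 and 1156 with continuous IL-10, 2080, 3300 and 1743 with LPS, and 648, 746 and 470 in untreated cells. The LPS libraries did not overlap the untreated ones, and the log2 difference was 1.90 (SE 0.36, adjusted p = 0.00130). This region supplied 50.5% of the Fos sum with LPS and 14.1% in untreated cells, while the region over the gene supplied 5.05% with LPS and 26.6% in untreated cells. The sum itself was 3579, 5092 and 6072 with LPS and 3721, 4330 and 6103 in untreated cells. These overlap almost fully (log2 difference 0.06, SE 0.24, adjusted p = 0.901). The region 5.72 kb downstream, chr12:85482990-85499557, held 1721, 1630 and 1415 with late IL-10 and 535, 704 and 1029 with LPS. Its libraries did not overlap (1.12, SE 0.36), but the adjusted p was 0.133. The same was seen with continuous IL-10, at 1784, 1489 and 1400 (1.09, SE 0.36, adjusted p = 0.0943). The remaining Fos region, 14.1 kb upstream, supplied 42.0% of the untreated sum. It held 431, 473 and 1872 with late IL-10 and 1770, 1823 and 2795 with continuous IL-10. With LPS it held 880, 1035 and 2587, and in untreated cells 1584, 1835 and 2503. It was called in no comparison. Late IL-10 differed by -1.42 from untreated (SE 0.53, adjusted p = 0.0506) and by -1.52 from continuous IL-10 (SE 0.53, adjusted p = 0.147). With the replicate number as a block both passed (adjusted p = 9.42e-04 and 0.00397), among 18781 and 4754 regions called.

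**Figure D2:**
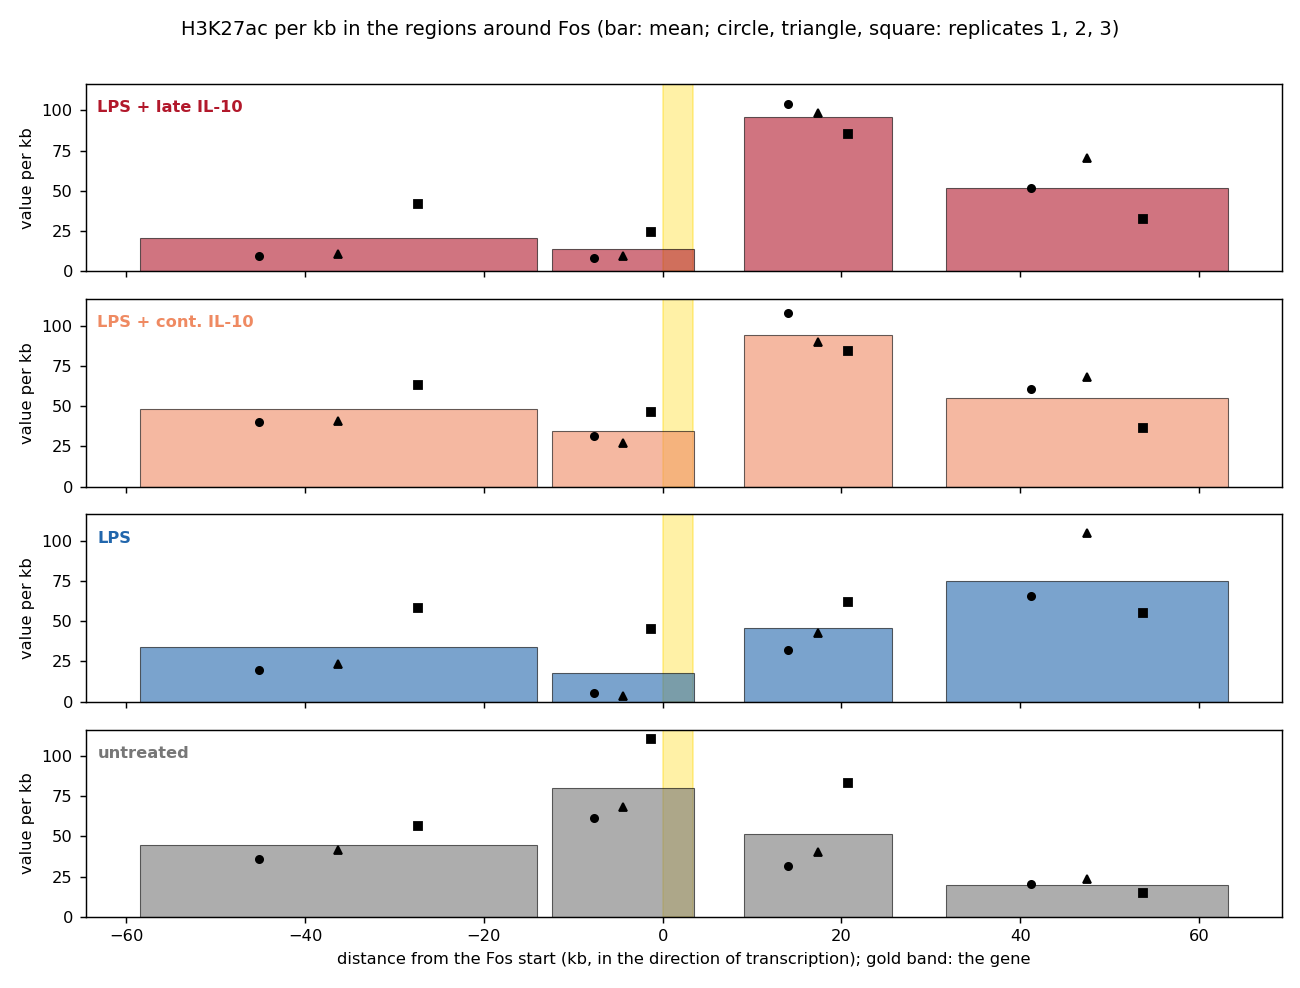
H3K27ac per kb in the 4 regions around Fos, against the distance from the start of the gene in kb, with the late IL-10, continuous IL-10, LPS and untreated groups from top to bottom. Bars are group means and points the 3 libraries; the bar over the gene falls to 17.9 per kb with LPS, against 80.0 per kb in untreated cells, while the bar beginning 31.7 kb after the start stands at 75.2 per kb with LPS, against 19.7 per kb in untreated cells.

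Fosb, a Fos paralogue, lost most of its signal with LPS. Its sum over 4 regions was 8.81, 55.5 and 46.1 with late IL-10, 74.2, 25.4 and 132 with continuous IL-10, 7.87, 11.8 and 112 with LPS, and 505, 570 and 894 in untreated cells. No library given LPS reached the untreated range. The log2 difference between LPS and untreated was -4.77 (SE 0.99, adjusted p = 0.00318), or -5.90 without LPS replicate 3, which stood above the other 2 LPS libraries, and -4.07 without LPS replicate 1. With only the region over the gene in the sum, the call ended (-3.37, adjusted p = 0.109).

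The fall at Fosb rested on a region beginning 4.95 kb upstream, chr7:19315072-19320656, which supplied 81.2% of the untreated sum. Its value was 1.97, 1.68 and 40.8 with LPS, where the first 2 are the lowest value of their library, and 409, 507 and 660 in untreated cells (log2 difference -6.22, SE 1.33, adjusted p = 0.00285). Without LPS replicate 3 the difference was -7.52, and without replicate 1 or 2 it was -5.61 and -5.53. With late IL-10 all 3 libraries were at the floor, at least 118-fold below untreated in the deposited values. Continuous IL-10 gave 1.69, 1.27 and 67.0. The region over the gene, chr7:19307809-19310883, held 1.97, 1.68 and 64.0 with LPS and 69.3, 35.3 and 224 in untreated cells, which overlap (adjusted p = 0.0716). The other 2 Fosb regions were weak: the one 1.35 kb downstream held 1.97 to 50.2 over the 12 libraries and was called in no comparison, and the one 14.8 kb upstream held 0.886 to 14.8 and did not pass the filter.

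Fosl2 encodes Fra-2, an AP-1 subunit without the strong activation domain of Fos. It was raised by LPS and raised further by late IL-10. Its sum was 13289, 11633 and 10010 with late IL-10, 7348, 5725 and 6467 with continuous IL-10, 3980, 4134 and 4532 with LPS, and 1892, 1890 and 3371 in untreated cells. The 4 groups did not overlap at any step of that order. LPS exceeded untreated by 0.88 on the log2 scale (SE 0.24, adjusted p = 0.0151), and this call was lost on leaving out untreated replicate 1 or 2 (adjusted p = 0.0744 and 0.0718) and in a fit of the 2 groups alone (adjusted p = 0.0565). Late IL-10 exceeded LPS by 1.46 (SE 0.24, adjusted p = 0.00344), or 2.76-fold, and the call held under every alternative run. Continuous IL-10 exceeded LPS by 0.62 (SE 0.24), which did not pass (adjusted p = 0.164).

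At the end of Fosl2, chr5:32154964-32180310 covers the last part of the gene and reaches beyond it, from 18.5 to 43.8 kb after the start. All 3 untreated libraries stood there at the lowest value of their library, which equals 1 read. The value was 2620, 2530 and 1505 with late IL-10, 1646, 1252 and 899 under continuous IL-10, and 1003, 1200 and 607 with LPS. In the deposited values this is at least 930-fold above the untreated floor with late IL-10, 530-fold with continuous IL-10 and 393-fold with LPS (adjusted p = 3.17e-08 for LPS). The smaller region within the gene, chr5:32146942-32151813, 10.5 kb after the start, was likewise at the floor in untreated cells and held 35.4, 18.5 and 56.6 with LPS, at least 15.4-fold higher (adjusted p = 8.23e-04).

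The region that holds the Fosl2 start, chr5:32116374-32145136, did not pass between LPS and untreated (0.16, SE 0.33). It held 6039, 4997 and 5513 with late IL-10, 2917, 2723 and 3843 with continuous IL-10, 1375, 1480 and 2799 with LPS, and 1307, 1206 and 2599 in untreated cells. LPS and untreated libraries overlapped, and late IL-10 exceeded LPS by 1.62 (SE 0.33, adjusted p = 0.0141). In the regions at the end of the gene and 10.5 kb after its start, late IL-10 was above LPS by 1.26 (SE 0.42, adjusted p = 0.154) and 1.57 (SE 0.76, adjusted p = 0.427), without overlap, and neither passed. For the region that holds the start, the call of late IL-10 against LPS ended without LPS replicate 1 or 2 (adjusted p = 0.0645 and 0.0596). It also ended without late IL-10 replicate 1 (adjusted p = 0.0764) and with the 2 groups alone (adjusted p = 0.0607). The region 23.6 kb downstream, chr5:32181450-32200449, rose with LPS (0.99, SE 0.28, adjusted p = 0.0143) and was higher again with late IL-10 (1.48, SE 0.28, adjusted p = 0.00864). The first of these calls was lost on leaving out either replicate 1 of the untreated group or replicate 1 of the LPS group (adjusted p = 0.0635 and 0.0577), and the second without late IL-10 replicate 1 (adjusted p = 0.0611) and with the 2 groups alone (adjusted p = 0.0709).

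**Figure D3:**
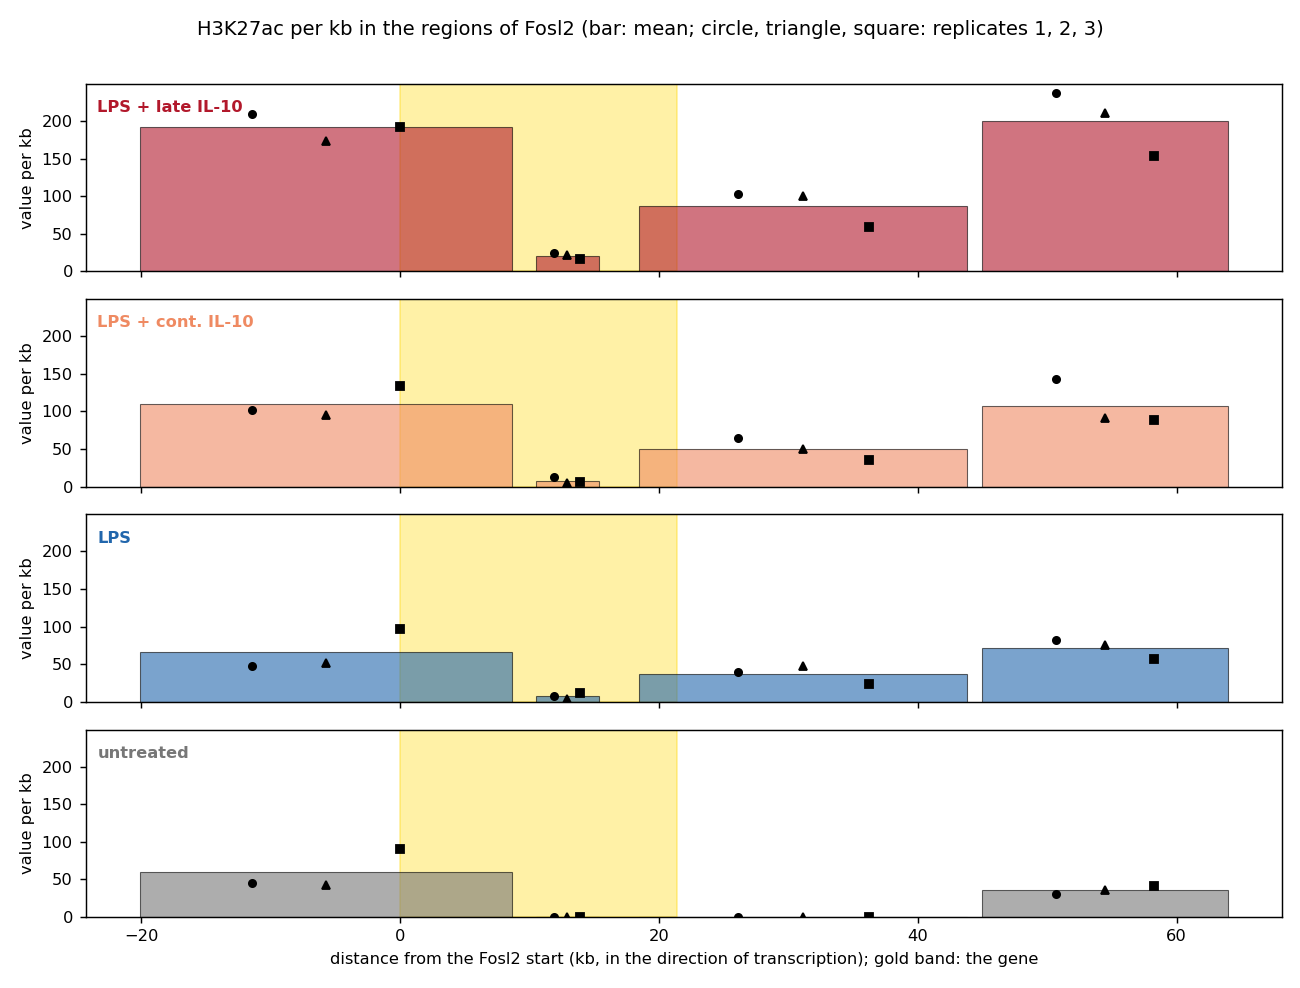
H3K27ac per kb in the 4 regions of Fosl2, against the distance from the start of the gene in kb, with the late IL-10, continuous IL-10, LPS and untreated groups from top to bottom. Bars are means and points the 3 libraries; the untreated group has 0.03 per kb between 18.5 and 43.8 kb, and late IL-10 reaches 192 per kb over the start and 200.4 per kb downstream.

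Jun and Junb encode the partners of Fos proteins in AP-1, and Junb is often the weaker activator. Neither sum passed the test between LPS and untreated. The Jun sum was 1650, 1430 and 2081 with late IL-10, 1862, 2387 and 2432 with continuous IL-10, 927, 1240 and 1982 with LPS, and 1427, 1562 and 1820 in untreated cells. LPS overlapped untreated (-0.28, SE 0.29, adjusted p = 0.530). Continuous IL-10 exceeded LPS by 0.75 (SE 0.29, adjusted p = 0.158), with overlapping libraries, and it passed without LPS replicate 3 (adjusted p = 0.0223) and by DESeq2 (adjusted p = 0.00890). It also passed with the replicate number as a block (adjusted p = 0.0219), where 2369 of all genes were called. The region over Jun, chr4:95049328-95056322, held 580 to 1508 over the 12 libraries and was called in no comparison. The region 40.2 kb upstream held 865, 1131 and 800 with continuous IL-10, against 289, 558 and 569 with LPS. These did not overlap, but the difference did not pass (1.03, SE 0.36, adjusted p = 0.113).

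A weak region 29.0 kb upstream of Jun, chr4:95081179-95090994, separated the IL-10 schedules. It held 1.76, 1.79 and 49.6 with late IL-10, 234, 205 and 133 with continuous IL-10, 57.1, 75.6 and 85.3 with LPS, and 134, 95.8 and 106 in untreated cells. Late IL-10 replicates 1 and 2 stood at the lowest value of their library, and no late IL-10 library reached any of the other groups. Late IL-10 was below continuous IL-10 by a log2 difference of -4.67 (SE 0.95, adjusted p = 0.0236). The call ended without late IL-10 replicate 1 or 2 (adjusted p = 0.121 and 0.0996), without continuous IL-10 replicate 1, 2 or 3 (adjusted p = 0.0709, 0.0947 and 0.0631), by edgeR (adjusted p = 0.103) and with the 2 groups alone (adjusted p = 0.0648). Without late IL-10 replicate 3 it was -6.07. Relative to LPS the difference was -3.31 (SE 0.95, adjusted p = 0.0840).

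Junb had 1 region, chr8:84974209-84991359, which also overlaps Hook2 and Prdx2, so its signal cannot be assigned to Junb alone. It held 6206, 5943 and 6817 with late IL-10, 5601, 4884 and 5668 with continuous IL-10, 4766, 6095 and 8255 with LPS, and 3277, 3338 and 6261 in untreated cells. Replicate 3 was the highest library of all 4 groups. LPS was above untreated by 0.60 (SE 0.27, adjusted p = 0.118), with overlapping libraries. This difference passed without untreated replicate 3 (adjusted p = 0.0155), with median centring (adjusted p = 0.0421), by edgeR (adjusted p = 0.0268) and by DESeq2 (adjusted p = 8.82e-05). It also passed with the replicate number as a block (adjusted p = 0.0243), where 5867 of all genes were called. Late IL-10 differed from LPS by 0.02 (95% interval -0.56 to 0.60).

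Atf3 encodes a stress-induced factor that can repress transcription as a dimer and limits Toll-like receptor responses. Its sum was 4910, 5337 and 3558 with late IL-10, 3952, 3184 and 3486 with continuous IL-10, 3823, 4581 and 3531 with LPS, and 3939, 3312 and 5264 in untreated cells. All groups overlapped. The 95% interval of the log2 difference between LPS and untreated was -0.55 to 0.45, that of continuous IL-10 against LPS -0.67 to 0.34 and that of late IL-10 against LPS -0.31 to 0.70. The region that holds the start, chr1:191177793-191209255, supplied 98.8% to 98.9% of the sum in all 4 groups. The region 26.9 kb upstream held 3.25 to 50.9 and was called in no comparison. The small region inside the gene, chr1:191174439-191177375, held 22.9, 25.1 and 43.4 with late IL-10 and 2.12, 11.3 and 0.42 in untreated cells. Its difference of 2.99 (SE 1.10, adjusted p = 0.0468) was lost without any 1 of untreated replicates 1 and 3 and late IL-10 replicates 1, 2 and 3 (adjusted p = 0.124, 0.184, 0.0840, 0.0868 and 0.101), by edgeR (adjusted p = 0.106) and with a pseudocount of 10 (adjusted p = 0.0541), and was 3.85 without untreated replicate 2.

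Egr1 and Egr2 encode zinc finger factors of the same family, and Egr2 is required for Schwann cell myelination and is induced in activated myeloid and lymphoid cells. Egr2 rose with LPS. Its sum was 770, 606 and 407 with late IL-10, 330, 290 and 215 with continuous IL-10, 608, 788 and 770 with LPS, and 163, 65.6 and 355 in untreated cells. The LPS libraries did not overlap the untreated ones (2.19, SE 0.51, adjusted p = 0.00594). The call held under every alternative run, with a log2 difference of 1.57 without untreated replicate 2 and 2.78 without untreated replicate 3. All 3 continuous IL-10 libraries were below all LPS libraries, by a log2 difference of -1.39 (SE 0.51, 95% interval -2.48 to -0.29). This did not pass (adjusted p = 0.142), except by DESeq2 (adjusted p = 0.0289). Late IL-10 overlapped LPS (-0.32, SE 0.51).

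Egr2 had 2 regions that rose with LPS. The region over the gene, chr10:67535139-67542888, held 439, 321 and 321 with late IL-10, 103, 146 and 123 with continuous IL-10, 460, 600 and 744 with LPS, and 131, 22.7 and 335 in untreated cells. LPS exceeded untreated there by 2.54 (SE 0.71, adjusted p = 0.0143), or 1.49 without untreated replicate 2 and 3.40 without untreated replicate 3, and continuous IL-10 was below LPS without overlap (-2.26, SE 0.71, adjusted p = 0.0822). The region 9.46 kb upstream, chr10:67520406-67525012, was at the floor in untreated cells. It held 291, 233 and 57.6 with late IL-10, 135, 53.4 and 38.4 under continuous IL-10, and 74.8, 118 and 11.1 with LPS. In the deposited values, the mean over the floor was at least 81.2-fold higher with late IL-10, 31.7-fold with continuous IL-10 and 28.4-fold with LPS (adjusted p = 0.00222 for LPS). Continuous IL-10 differed from LPS by 0.47 (95% interval -1.63 to 2.58). Whether the IL-10 difference itself differed between the 2 regions was not tested. The last of the Egr2 regions, 43.6 kb upstream, held 15.3 to 92.7 over the 12 libraries and was called in no comparison.

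Egr1 had 1 region of 8.17 kb that overlaps the gene's end nearest the lower coordinate. It held 150, 1.79 and 115 with late IL-10, 411, 244 and 373 with continuous IL-10, 246, 160 and 343 with LPS, and 370, 173 and 537 in untreated cells. Late IL-10 replicate 2 stood at the lowest value of its library. All late IL-10 libraries lay below the libraries of the other groups, but the difference from LPS did not pass (-2.71, SE 1.13, adjusted p = 0.318) and shrank to -0.85 without late IL-10 replicate 2. LPS and untreated overlapped (-0.45, SE 1.13).

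Ier3 encodes an immediate early protein that acts on survival and on kinase signalling. It was raised by both IL-10 schedules and not by LPS. Its sum was 7418, 7133 and 5598 with late IL-10, 4954, 3831 and 4910 with continuous IL-10, 2249, 2659 and 1780 with LPS, and 3134, 2244 and 2510 in untreated cells. LPS overlapped untreated (-0.24, SE 0.23, adjusted p = 0.486), and neither IL-10 group overlapped LPS. Late IL-10 exceeded LPS by 1.60 (SE 0.23, adjusted p = 0.00130), or 3.01-fold, under every alternative run. Continuous IL-10 exceeded LPS by 1.04 (SE 0.23, adjusted p = 0.0188), or 2.05-fold. This call ended without LPS replicate 1 (adjusted p = 0.0653), without continuous IL-10 replicate 1 or 3 (adjusted p = 0.0722 and 0.0692), after median centring (adjusted p = 0.130), with the 2 groups alone (adjusted p = 0.0736), by edgeR (adjusted p = 0.163) and by DESeq2 (adjusted p = 0.0994).

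Both Ier3 regions took part. The region over the gene, chr17:35792394-35826104, is 33.7 kb wide and also overlaps Flot1, so its signal cannot be assigned to Ier3 alone. It held 5003, 5036 and 4141 with late IL-10, 3907, 3054 and 3671 with continuous IL-10, 1733, 2116 and 1625 with LPS, and 2252, 1600 and 2067 in untreated cells. Late IL-10 exceeded LPS by 1.38 (SE 0.22, adjusted p = 0.00305) and continuous IL-10 by 0.96 (SE 0.22, adjusted p = 0.0209). The first call ended with the 2 groups alone (adjusted p = 0.0620). The second ended without LPS replicate 1 (adjusted p = 0.0710), without continuous IL-10 replicate 1 or 3 (adjusted p = 0.0760 and 0.0723) and with the 2 groups alone (adjusted p = 0.0989).

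The other Ier3 region, chr17:35769964-35790824, lies 30.9 kb upstream and overlaps no other gene. It held 2414, 2096 and 1457 with late IL-10, 1047, 777 and 1239 with continuous IL-10, 516, 543 and 155 with LPS, and 882, 644 and 443 in untreated cells. The late IL-10 libraries were above those of every other group. Late IL-10 exceeded LPS by 2.47 (SE 0.46, adjusted p = 0.00806), or 1.88 without LPS replicate 3, and the call ended without late IL-10 replicate 1 (adjusted p = 0.0534) and with the 2 groups alone (adjusted p = 0.0559). Continuous IL-10 exceeded LPS by 1.51 (SE 0.46, adjusted p = 0.0696), which did not pass.

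Csrnp1 encodes a cysteine and serine rich nuclear protein induced by axin. Its single region, chr9:119975069-119985738, held 1569, 1324 and 1899 with late IL-10, 541, 785 and 1115 with continuous IL-10, 1261, 1370 and 1829 with LPS, and 639, 497 and 945 in untreated cells. Late IL-10 and LPS overlapped, continuous IL-10 and untreated overlapped, and the first pair lay above the second. LPS exceeded untreated by 1.13 (SE 0.33, adjusted p = 0.0198), which no longer passed on leaving out untreated replicate 1 or 2 (adjusted p = 0.0651 and 0.0889). Continuous IL-10 was below LPS by a log2 difference of -0.91 (SE 0.33), which did not pass (adjusted p = 0.133). It passed with median centring (adjusted p = 0.0407), by edgeR (adjusted p = 0.0417) and by DESeq2 (adjusted p = 6.26e-04). With the replicate number as a block it passed too (adjusted p = 0.0104), where 2369 of all genes were called. Late IL-10 differed from LPS by 0.11 (95% interval -0.60 to 0.81).

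**Figure D4:**
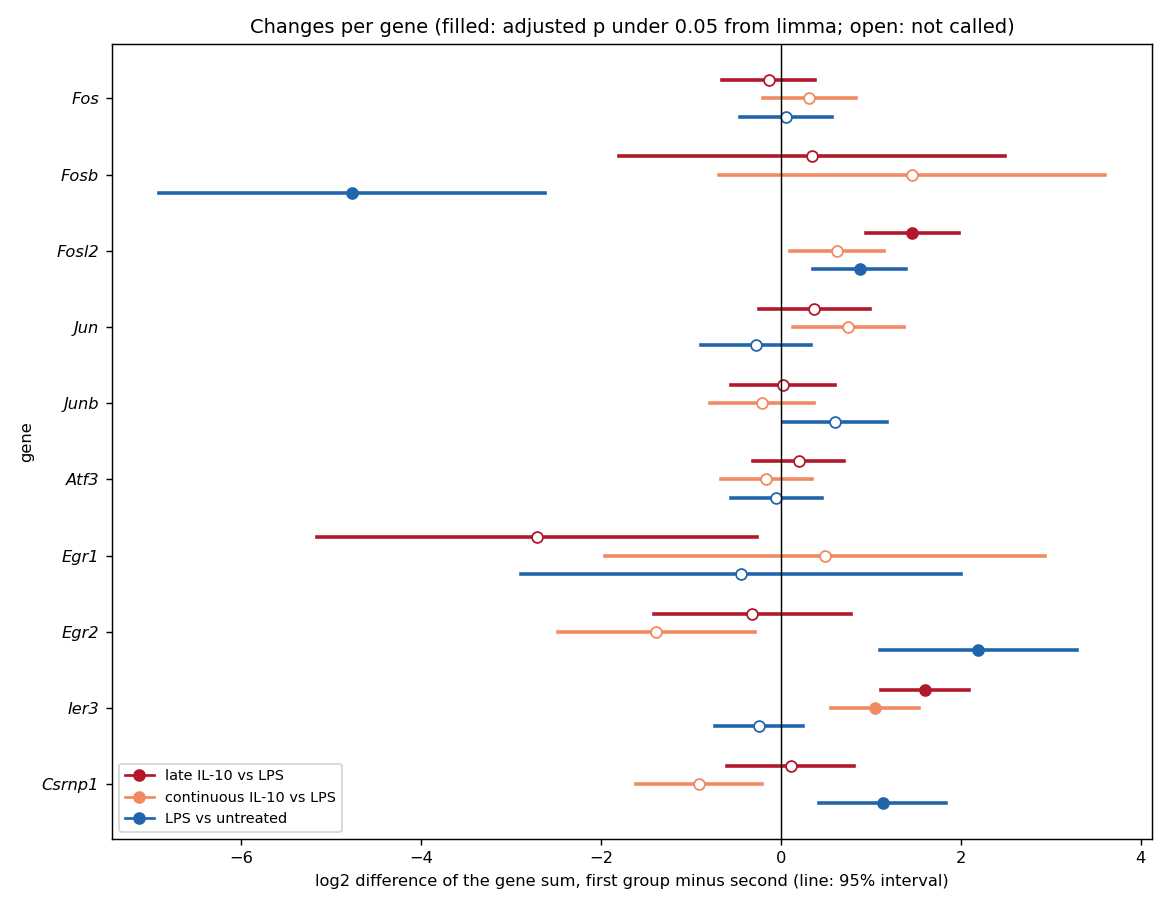
Log2 difference of each gene sum with its 95% interval for late IL-10 against LPS, continuous IL-10 against LPS and LPS against untreated; filled points have an adjusted p under 0.05 from limma. Late IL-10 raised Fosl2 (1.46) and Ier3 (1.60), continuous IL-10 raised Ier3 (1.04, a call lost in 7 of 14 alternatives), and the widest intervals are those of Fosb and Egr1.

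Between the IL-10 schedules, limma called none of the 10 gene sums (background 2.55%). Unadjusted p-values were below 0.05 for 3 genes that were higher and 1 that was lower with late than with continuous IL-10 (17.6% of all genes in either direction). edgeR called 1 of the 10 (132 of all genes) and DESeq2 2 (1339 of all genes). The late libraries did not overlap the continuous ones at 7 of the 10 genes, where this held for 25.3% of all genes. Of the 7, Fosl2, Junb, Egr2, Ier3 and Csrnp1 were higher and Fos and Egr1 lower. The log2 difference was 0.84 at Fosl2 (SE 0.24, adjusted p = 0.0808), 0.56 at Ier3 (SE 0.23, adjusted p = 0.221), 1.07 at Egr2 (SE 0.51, adjusted p = 0.299) and 1.02 at Csrnp1 (SE 0.33, adjusted p = 0.115). The Csrnp1 difference passed with median centring (adjusted p = 0.0370), by edgeR (adjusted p = 0.0479) and by DESeq2 (adjusted p = 3.62e-05), and that of Fosl2 passed by DESeq2 (adjusted p = 0.00985). At Egr1 it was -3.20 (SE 1.13, adjusted p = 0.152), and it passed only with the replicate number added as a block (adjusted p = 0.0460). Fosl2 and Csrnp1 passed with that block too (adjusted p = 0.0162 and 0.00625), where 2272 of all genes were called. Per region, 1 of 25 was called (background 2.71%), the weak one upstream of Jun, and this count ranged from 0 to 2 when single libraries of either schedule were left out.

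**Figure D5:**
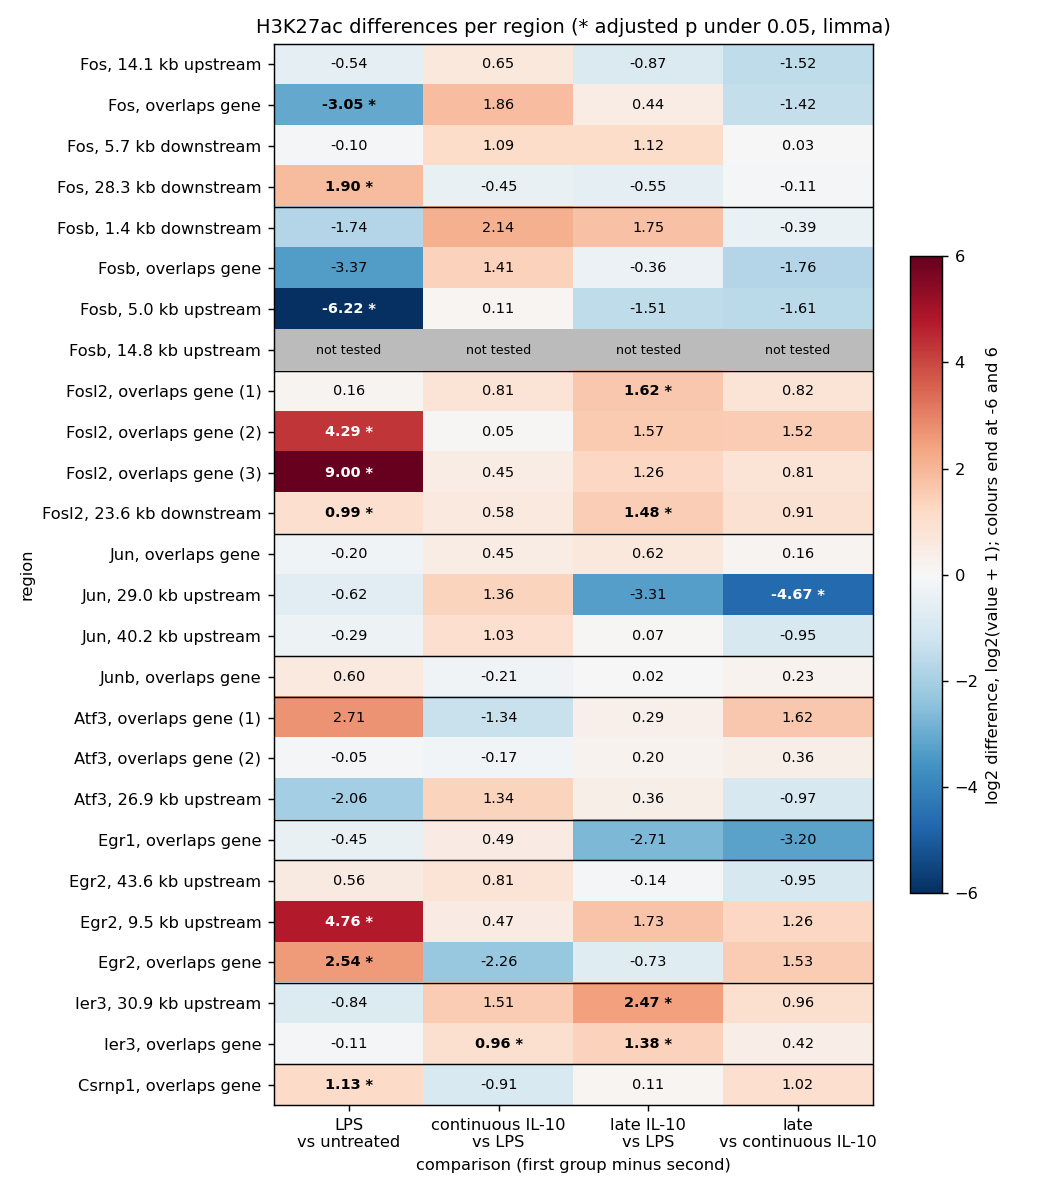
Log2 difference of each of the 26 regions, in rows by gene, in 4 comparisons (columns, first group minus second; colours end at -6 and 6). An asterisk marks an adjusted p under 0.05 from limma and grey a region that was not tested; values of regions at the floor in a group depend on the added 1. The row for the region over Fos holds -3.05 and that 28.3 kb downstream 1.90 between LPS and untreated.

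Set against untreated cells, 6 gene sums were called with late IL-10 (4 higher, 2 lower, background 31.1%) and 3 with continuous IL-10 (2 higher, 1 lower, background 17.6%). These comparisons share the untreated libraries with that of LPS. The 6 became 3 without untreated replicate 2, and the 3 became 1 without untreated replicate 2 or 3 or continuous IL-10 replicate 1. Fosl2 was higher by 2.33 with late IL-10 (SE 0.24, adjusted p = 1.98e-05) and by 1.50 with continuous IL-10 (SE 0.24, adjusted p = 8.75e-04). Ier3 was higher by 1.36 with late IL-10 (SE 0.23, adjusted p = 6.61e-04) and by 0.80 with continuous IL-10 (SE 0.23, adjusted p = 0.0269). The Ier3 call with continuous IL-10 was lost on leaving out untreated replicate 2 or 3 (adjusted p = 0.112 and 0.0650), without continuous IL-10 replicate 1 or 3 (adjusted p = 0.103 and 0.0819), after median centring (adjusted p = 0.138), by edgeR (adjusted p = 0.139) and by DESeq2 (adjusted p = 0.106).

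Fosb was lower than untreated by a log2 difference of -4.43 with late IL-10 (SE 0.99, adjusted p = 0.00431; -3.63 without late IL-10 replicate 1) and of -3.31 with continuous IL-10 (SE 0.99, adjusted p = 0.0345). With the region over Fosb alone in the sum, both calls ended (adjusted p = 0.0702 and 0.472). The second was also lost on leaving out untreated replicate 1, 2 or 3 (adjusted p = 0.0866, 0.0882 and 0.108) or continuous IL-10 replicate 1 or 2 (adjusted p = 0.0794 and 0.155). With late IL-10, Egr2 was higher by 1.87 (SE 0.51, adjusted p = 0.0128) and Csrnp1 by 1.24 (SE 0.33, adjusted p = 0.0110). The Egr2 call was lost without untreated replicate 2 (adjusted p = 0.0502), without late IL-10 replicate 1 (adjusted p = 0.0633) and with the region over the gene alone (adjusted p = 0.0754), and the Csrnp1 call without untreated replicate 2 (adjusted p = 0.0528). Egr1 was lower than untreated with late IL-10 by a log2 difference of -3.16 (SE 1.13, adjusted p = 0.0494). It was lost on leaving out untreated replicate 1, 2 or 3 (adjusted p = 0.126, 0.0612 and 0.153), without late IL-10 replicate 2, where it was -1.30 (adjusted p = 0.108), and under 6 further alternatives with adjusted p up to 0.140, and it was -4.18 and -3.99 without late IL-10 replicate 1 or 3. Per region, 16 of 25 were called with late IL-10 (11 higher, 5 lower, background 36.7%) and 7 with continuous IL-10 (6 higher, 1 lower, background 23.4%), and the 16 became 10 without late IL-10 replicate 2. The region over Fos was below untreated with late IL-10 (-2.61, SE 0.77, adjusted p = 0.0170), but not when untreated replicate 3 or late IL-10 replicate 1 or 2 was left out (adjusted p = 0.0635, 0.0702 and 0.0577). The Fos region 28.3 kb downstream was above untreated by 1.35 with late IL-10 (SE 0.36, adjusted p = 0.0103) and by 1.46 with continuous IL-10 (SE 0.36, adjusted p = 0.00985). The first of these did not pass without late IL-10 replicate 2 (adjusted p = 0.0530), and the second not without continuous IL-10 replicate 2 (adjusted p = 0.0523).

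Compared per kb of region, Junb had the highest level of the 10 genes in every group, at 369 ± 26.1 per kb with late IL-10, 314 ± 25.3 under continuous IL-10, 372 ± 103 with LPS and 250 ± 99.4 in untreated cells (SD, n = 3). Fosb had the third highest level in untreated cells, at 66.4 ± 21.1 per kb, where it overlapped Csrnp1 below it at 65.0 ± 21.5. It had the lowest level in the other groups, at 3.72 ± 2.50 with late IL-10, 7.81 ± 5.40 with continuous IL-10 and 4.43 ± 5.95 with LPS, overlapping Egr1 above it with late IL-10 (10.9 ± 9.47). Fosl2 had the ninth level in untreated cells, at 30.6 ± 11.0 per kb, and reached 149 ± 21.0 with late IL-10, where it overlapped Csrnp1 above it and Atf3 below it. With LPS, each neighbour in the order Fosl2, Egr2, Fos, Jun, Ier3 and Egr1 overlapped the next.

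For each gene, the gene whose log2 pattern over the 12 libraries was most like it was found by the root mean square difference after centring. Each distance is the smallest over all tested genes, so it lies below the median by construction. Whether such genes share any regulation was not tested. Txnrd1 was nearest to Fosl2 (0.22, against a median of 1.15 over all genes), Il4ra to Ier3 (0.18 against 1.03), Slc25a22 to Egr2 (0.24 against 1.23) and Krit1 to Csrnp1 (0.19 against 0.90). Nearest to Fos was 4933434E20Rik (0.10 against 0.69), to Jun Atg12 (0.14 against 0.72), to Junb Acaa1a (0.12 against 0.73) and to Atf3 Hk2 (0.12 against 0.75). The nearest to Fosb was Deptor (0.68 against 2.13) and to Egr1 Clspn (0.84 against 1.94).

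Other genes of the pathway were looked up from 4 lists, by gene sum. Of 12 further AP-1, ATF and small Maf genes, 2 rose and 1 fell with LPS, where 27.5% of all genes were called. Relative to LPS, 1 fell with continuous IL-10 (5.76% of all genes called) and 1 rose with late IL-10 (3.45%). The list median was -0.06 for late IL-10 against LPS, -0.23 for continuous IL-10 against LPS and 0.26 for LPS against untreated, where that of all genes was -0.16, 0.03 and -0.11. Batf, a factor that dimerises with Jun proteins and binds with IRF factors, was 3204 ± 1137 with LPS and 882 ± 226 in untreated cells (1.84, SE 0.32, adjusted p = 9.69e-04). Batf2 rose by 2.63 and Batf3 fell by 1.60 on the log2 scale (adjusted p = 0.00106 and 0.0292). With late IL-10 Batf was 10386 ± 2654, above LPS by 1.72 (SE 0.32, adjusted p = 0.00736), and it was the only called gene of that list. Batf3 was lower with continuous IL-10 than with LPS (-1.84, SE 0.50, adjusted p = 0.0483), and higher with late than with continuous IL-10 (2.87, SE 0.50, adjusted p = 0.0172).

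Of 4 Egr genes and co-repressors, 3 had a region and Nab1, which encodes an Egr co-repressor, rose with LPS (0.96, SE 0.32, adjusted p = 0.0379). Of 25 further immediate early genes, 24 were tested: 3 rose and 4 fell with LPS (27.5% of all genes called), 1 rose and 2 fell with continuous IL-10 relative to LPS (5.76%), and 1 rose and 1 fell with late IL-10 relative to LPS (3.45%). Dusp2, a phosphatase gene whose region also overlaps Astl, was 3781 ± 249.9 with LPS and 186 ± 85.1 in untreated cells (4.43, SE 0.30, adjusted p = 1.47e-06). Gadd45b, a growth arrest and stress gene, rose with LPS by 2.20 (SE 0.27, adjusted p = 7.81e-05) and was lower with continuous IL-10 than with LPS (-1.10, SE 0.27, adjusted p = 0.0287). Zfp36l1, whose product promotes decay of short-lived transcripts and whose region also overlaps Gm52006, differed the other way in both comparisons (-2.45 and 1.44, SE 0.33, adjusted p = 1.54e-04 and 0.0213). The kinase gene Plk2 was 19.7 ± 14.6 with continuous IL-10 and 138 ± 28.1 with LPS (-3.16, SE 0.76, adjusted p = 0.0285), and late exceeded continuous IL-10 there by 3.26 (SE 0.76, adjusted p = 0.0436). Rhob, a small GTPase gene whose region also overlaps Slc7a15, was lower with late IL-10 than with LPS (-1.53, SE 0.23, adjusted p = 0.00175). With late IL-10, Dusp1, the gene of a phosphatase that acts on stress-activated kinases, was 8675 ± 2517, against 3108 ± 303 with LPS (1.44, SE 0.28, adjusted p = 0.00925). Of 15 upstream factors and kinases, Creb1 rose with LPS (0.70, SE 0.23, adjusted p = 0.0367), and Map2k3 (-1.18, SE 0.26, adjusted p = 0.00490) and Mrtfb (-0.80, SE 0.28, adjusted p = 0.0467) fell. In that list Map3k8, the kinase gene upstream of ERK in the Toll-like receptor response, was the only gene called with either IL-10 schedule relative to LPS. It was higher than LPS by 1.68 with late IL-10 (SE 0.28, adjusted p = 0.00401) and by 1.34 with continuous IL-10 (SE 0.28, adjusted p = 0.0154).

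Against untreated cells, 31.1% of all genes were called with late IL-10 and 17.6% with continuous IL-10. Of the AP-1, ATF and small Maf list, 2 genes were higher with late IL-10, Batf (3.56) and Batf2 (3.20). With continuous IL-10 Batf (2.67) and Batf2 (1.68) were higher and Batf3 (-3.43) lower. Of the other immediate early genes, 5 were higher and 5 lower with late IL-10, and 3 were higher and 3 lower with continuous IL-10. Those with the smallest adjusted p were the same 3 genes in both: Dusp2 (5.06 with late and 4.46 with continuous IL-10), Phlda1 (2.64 and 2.57) and Rhob (-2.68 and -1.76). Of the upstream list, Map3k8 (1.32) and 1 other gene were higher and 3 lower with late IL-10, among them Mrtfb (-1.40) and Mapk3 (-2.81), whose region also overlaps Gdpd3, Tbx6 and Ypel3. Under continuous IL-10, Map3k8 (0.98) was higher, and Map2k3 (-1.06) and Mrtfb (-1.02) were lower.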

How the data were processed

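The submitters' processing notes list mm10 as the build and DiffBind, MACS2, Bowtie2 and Trim Galore as tools, with no role or version given here. What the authors deposited is 1 normalised signal per library and region, for 40691 regions. In each library 100% of these values are whole multiples, within 0.0001 reads, of its smallest value, so the signal equals whole reads times 1 factor per library (0.419 to 1.97 per read). Whether input was subtracted is not given, so reads recovered are not the sequencing depth, and intervals cover no such step. The input library has no column and was not analysed here.

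The design named edgeR for plain counts; as the values are scaled, limma 3.58.1 (R 4.3.3, trend and robust moderation) was used on log2(value + 1) of all 12 libraries with group as the only term, for features whose mean over the libraries passed the 10th percentile, with Benjamini-Hochberg adjustment over all of them. Every adjusted p comes from it unless edgeR 4.0.16 or DESeq2 1.42.0, both run on recovered reads, is named. For genes, edgeR called 4048 between LPS and untreated, 623 for continuous IL-10 and 381 for late IL-10 against LPS, and 132 between the schedules. With 3 libraries a group the smallest exact permutation p is 0.1, and no such test is reported. Genes were placed with RefSeq tables of GRCm38.p6. The members and lists were chosen with earlier results of these data known. All 10 genes are named, with the regions that overlap a gene or were called at least once; of the other genes, up to 3 called ones with the smallest adjusted p are named per list and comparison, and the 1 gene sharing no region whose pattern is nearest to each member. Alternatives were another pseudocount, no filter, median centring, a replicate block, edgeR, DESeq2, the 2 groups alone, each library left out, and regions over the gene alone.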

Additional observations from a re-analysis of the deposited data

Results flagged for a closer look

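The region 29.0 kb upstream of Jun, chr4:95081179-95090994, differed between the IL-10 schedules when the difference itself was tested. Late IL-10 libraries held 1.76, 1.79 and 49.6, against 234, 205 and 133 with continuous IL-10 (log2 difference -4.67, SE 0.95, adjusted p = 0.0236 from limma). The value ranged between -6.07 and -3.97 with 1 late IL-10 replicate left out, and the call was lost in 7 of 13 alternatives, among them leaving out any 1 of 5 of the 6 libraries, edgeR (adjusted p = 0.103) and the 2 groups alone (adjusted p = 0.0648). The region supplied 0.87% of the Jun sum with late IL-10 and 8.88% with continuous IL-10.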

How the results depend on the processing

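Of the values recomputed for member genes and named regions, 1173 kept direction and side of the threshold, 103 lost a call, 28 gained one and 30 changed sign; the pathway lists were not recomputed. No value called in the main fit changed sign. With regions over the gene alone, Fos differed by -3.05 between LPS and untreated, 0.44 between late IL-10 and LPS, and -1.19 between continuous IL-10 and untreated, Fosb by -0.36 between late IL-10 and LPS, and Jun by 0.16 between the schedules. The first of these was itself a call (adjusted p = 0.0104). Late IL-10 against untreated at Fos kept its sign there and became a call (-2.61, adjusted p = 0.0215). Late IL-10 against untreated gave 0.060 (median centring), 0.075 (edgeR) and 0.10 (DESeq2) at Fos, late IL-10 against LPS gave -0.0079 (edgeR) at Fosb, and LPS against untreated gave 0.10 (edgeR) and 0.11 (DESeq2) at Atf3. The causes were not tested. Leaving out 1 library gave -0.11 to 0.27 for Fos and -0.20 to 0.13 for Atf3 between LPS and untreated, -0.35 to 0.030 for Fos and -0.36 to 1.48 for Fosb between late IL-10 and LPS, -0.24 to 0.12 for Fos, -0.054 to 0.22 for Jun and -0.0061 to 0.33 for Atf3 between late IL-10 and untreated, -0.17 to 0.23 for Junb and -0.026 to 0.27 for Csrnp1 between late IL-10 and LPS, and -0.41 to 0.40 for Egr1 and -0.038 to 0.48 for Csrnp1 between continuous IL-10 and untreated. The count of called genes ranged over left-out libraries from 2 to 5 (LPS against untreated, main 4), 0 to 2 (continuous IL-10 against LPS, main 1), 1 to 2 (continuous IL-10 against untreated, main 3) and 3 to 6 (late IL-10 against untreated, main 6). The count of called regions ranged from 0 to 4 (continuous IL-10 against LPS, main 1), 1 to 5 (late IL-10 against LPS, main 4), 0 to 2 (late against continuous IL-10, main 1) and 10 to 16 (late IL-10 against untreated, main 16). For continuous IL-10 against LPS, DESeq2 called 3 genes and 3 regions, median centring 2 regions, and the 2 groups alone 0 genes. For late IL-10 against LPS the 2 groups alone called 0 regions. Between the schedules, median centring called 1 gene, edgeR 1 gene and 0 regions, DESeq2 2 genes and 2 regions, and the 2 groups alone 0 regions.

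With the replicate number as a block, calls moved to 3 genes and 8 regions for continuous IL-10 against LPS, 7 regions for late IL-10 against LPS, and 3 genes and 7 regions between the schedules. The calls over all features moved as well, to 2369 genes (776 without the block) and 6006 regions (2387), 2962 regions (1294), and 2272 genes (344) and 4754 regions (992). By gene, the block called Jun (adjusted p = 0.0219), Csrnp1 (adjusted p = 0.0104) and Ier3 (adjusted p = 0.00208) for continuous IL-10 against LPS. Between the schedules it called Fosl2 (adjusted p = 0.0162), Egr1 (adjusted p = 0.0460) and Csrnp1 (adjusted p = 0.00625). Junb passed with LPS and with late IL-10 against untreated (adjusted p = 0.0243 and 0.0185), among 5867 and 6354 genes called. The labels do not tie the numbers to the pools. Deviations of the 18 same-numbered pairs from their group means correlated between 0.0993 and 0.712, and 11 of 12 libraries were closest to their own number, a hint from the data and not the design.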
